A study of Mus musculus with 6 samples.

Results

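Aurora A, the polo-like kinases PLK1 and PLK4 and a group of proteins that build the mitotic spindle were followed through 10 genes: Aurka, Tpx2, Plk1, Plk4, Dlgap5, Nusap1, Hmmr, Ckap2l, Bora and Prc1. The genes were taken by name and found by Ensembl ID, and all 10 were present among the 56884 genes of the count table and passed the filter on low counts. Every one of the 10 was higher in spleens of passage-1 (P1) recipients than in B cells of wild-type (WT) spleens, and no P1 library overlapped a WT library for any of them. Of all 15462 genes tested, 16.9% were higher at an edgeR adjusted p under 0.05. All 3 P1 libraries lay above all 3 WT libraries for 22.9%. The rise was 6.38- to 14.6-fold for 8 of the genes, and 2.54- and 2.51-fold for Plk4 and Bora, which did not pass when any 1 WT library was left out.

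The 3 WT libraries hold RNA of selected splenic B cells of wild-type mice, and their columns carry the mark BL6. The 3 P1 libraries hold RNA of whole spleens, without a selection step in the labels, from mice given transferred cells of the Eµ-SOX11CCND1 model at passage 1. The model is named for 2 genes of mantle cell lymphoma, SOX11 and CCND1, and for Eµ, the enhancer of the immunoglobulin heavy chain locus that is used to drive transgenes in the B lineage. Age, sex, the genotype of the recipients and the time after transfer are not given in the labels, and whether the 3 recipients were given cells of the same donor is not stated. The WT labels name 3 mice, but the column names of WT A and B share a tag that WT C does not carry and whose meaning is not stated. P-values therefore measure the spread between these libraries, and genotype, tumour and B cell selection differ between the groups at once and cannot be told apart. In such bulk samples, more dividing cells and more RNA of a gene per cell cannot be told apart either.

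Aurora A is a serine/threonine kinase of the centrosomes and spindle poles, and TPX2 is the microtubule-associated protein that binds it, switches it on and carries it to spindle microtubules. BORA presents PLK1 to Aurora A, which phosphorylates the activation loop of PLK1, and PLK1 then acts in mitotic entry, centrosome maturation, chromosome segregation and cytokinesis. PLK4 is the kinase that starts the duplication of centrioles. DLGAP5 (HURP), NUSAP1, HMMR, CKAP2L and PRC1 bind spindle microtubules, PRC1 those of the central spindle. Transcripts of many such genes are low in resting lymphocytes and peak in G2 and mitosis, and promoters of this kind often carry CCAAT boxes, bound by NF-Y, together with a cell cycle homology region (CHR), bound by the MuvB complex.

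The stretches around the CHR motif are shown first, because the genes moved together and their start sites are where these motifs are looked for. Promoter windows of 300 bases, from 250 before to 50 after an annotated start, were taken from RefSeq (GRCm38.p6, an older build than the GRCm39 of the count table), and 7 of the 10 genes had a window (Tpx2, Dlgap5 and Bora were named only). CCAAT and TTTGAA were searched on both strands. Positions count the start as 1 and the base before it as -1. The 20 bases around TTTGAA, 5′ to 3′ on the gene's strand with the match in capitals, were as follows, with Ckap2l matching on the other strand.
Aurka: gagaaccTTTGAAttgtaac
Plk1: cgccgcgTTTGAAttcgggg
Hmmr: aggtaaaTTTGAAttcaggc
Prc1: ggctcggTTTGAAttccgcg
Ckap2l: ggcgaatTTCAAAgtcgcgg
Compared position by position, the stretches of Plk1 and Prc1 were identical at 14 of 20 bases, and those of Aurka and Plk1 at 9. Aurka shared 11 bases with Hmmr and 9 with Prc1, and Hmmr shared 12 with Plk1 and 12 with Prc1. These counts include the searched letters TTTGAA, which are shared by the way the stretches were chosen. Ckap2l was not compared in this way because its match lies on the other strand. The match began at 33 in Aurka (chr2:172370526-172370545, minus strand), at 31 in Plk1 (chr7:122159458-122159477, plus strand) and at 9 in Hmmr (chr11:40733417-40733436, minus strand), all shortly after the start. It began at -30 in Ckap2l (chr2:129297230-129297249, minus strand) and in Prc1 (chr7:80294439-80294458, plus strand). For Prc1 positions are from the second of 2 annotated starts. Ckap2l had a second match at 42.

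The last 100 bases before the start are printed for the 3 kinases, and the relation of a motif to the size of the rise was not tested. Capitals mark CCAAT.
Aurka: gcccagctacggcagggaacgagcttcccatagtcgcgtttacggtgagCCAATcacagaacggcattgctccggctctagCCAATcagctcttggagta
Plk1: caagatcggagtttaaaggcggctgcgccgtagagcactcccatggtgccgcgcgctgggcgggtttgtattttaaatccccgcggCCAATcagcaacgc
Plk4: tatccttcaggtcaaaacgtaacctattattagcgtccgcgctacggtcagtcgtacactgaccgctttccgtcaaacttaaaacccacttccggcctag
These lie at chr2:172370571-172370670 (minus strand), chr7:122159335-122159434 (plus strand) and chr3:40799851-40799950 (plus strand). Aurka had CCAAT at -51 and -19, Plk1 had it at -14, and the Plk4 window held neither motif. Hmmr had 5 CCAAT boxes, all on the other strand, at -172, -129, -96, -47 and -20. Ckap2l had 3, at -122, -40 and -14, and Prc1 had 1 at -62.

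Of the 7 genes with a window, 5 held both motifs, and Plk4 and Nusap1 held neither. Among all 32851 windows 37.41% held CCAAT, 17.89% held TTTGAA and 6.95% held both. The windows of 18 spindle and midzone partner genes held both motifs in 12 genes, and those of 19 S phase genes in 3 of them. Both were also held by 4 of 15 genes that switch Aurora A and PLK1 on or remove them. The same was seen for 2 of 8 Ran and importin genes, 2 of 13 centriole duplication genes and 1 of 12 gamma-tubulin and augmin genes. Of the 4 other Aurora and polo-like kinases with a window, 0 held TTTGAA. Nusap1 rose 12.6-fold with neither motif in its window, and Plk4 rose 2.54-fold with neither. A match is a description of these letters and not a measured binding site.

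**Figure D1:**
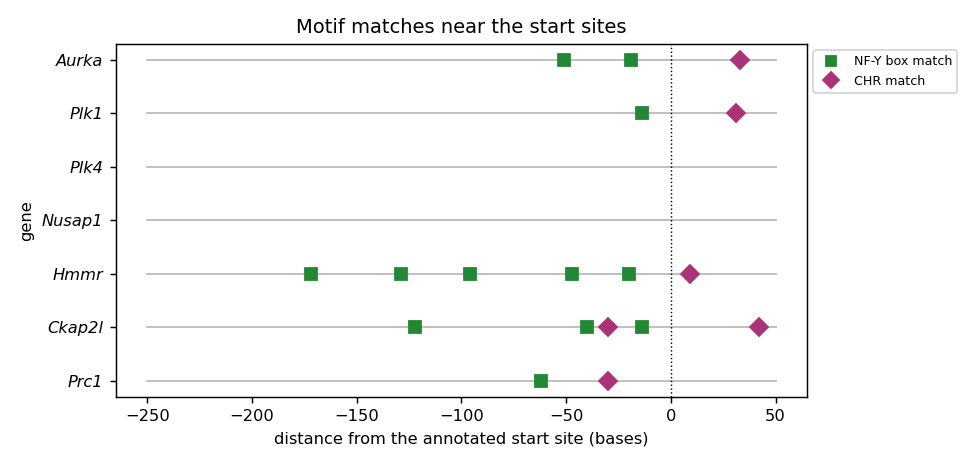
Positions of the CCAAT box (NF-Y box, squares) and CHR (diamonds) matches in bases from the annotated start site (dotted line) for the 7 genes with a promoter window (for Prc1 from the second start). Aurka, Plk1, Hmmr, Ckap2l and Prc1 hold both, with the CHR match between -30 and 42, and Plk4 and Nusap1 hold neither.

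Library totals ran from 12196413 to 14266132 counts in the WT and from 7510327 to 10363396 in the P1 libraries. A single member had between 21 and 1554 counts in a library. Values are CPM, counts relative to the library total normalised by TMM, and tests are the edgeR quasi-likelihood test with Benjamini-Hochberg adjustment over all 15462 genes tested. Of these, 27.9% were called in either direction, 16.9% higher and 11% lower, and 22.9% had all 3 P1 libraries above all 3 WT libraries. These shares are the background against which the 10 of 10 called higher and the 10 of 10 without overlap stand. The median log2 fold change was 3.37 over the 10 genes and 0.02 over all genes tested.

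P1 replicate 4 stood apart, with 17.358% of its counts from mitochondrial genes (0.085% to 3.402% in the other 5 libraries) and a TMM factor of 0.578. All 10 genes were called higher without it as well, with a median of 3.37, where 17% of genes tested were called higher. Markers of other cells of the spleen differed between the groups too. All 19 red cell precursor markers tested and all 16 neutrophil and granule precursor markers were called higher. The red cell markers summed to 136.4 to 169 CPM in WT and to 40780, 230800 and 7871 CPM in P1 replicates 3, 4 and 5. The neutrophil markers summed to 2.633 to 10.81 CPM in WT and to 8393, 1146 and 3000 CPM in the same replicates. T cell markers (12 of 12 called higher) summed to 48.16 to 64.29 and 358.1 to 747.4 CPM, and macrophage markers (1 of 12 called higher, Marco) to 297.4 to 832.7 and 627.4 to 1798 CPM. No marker of these 4 lists was at 0 counts throughout a group. Pan-B cell genes fell in 18 of 20, from sums of 12370 to 13290 CPM to sums of 1565 to 4400 CPM. Red cell and granulocyte precursors divide in a spleen that makes blood, and the part of these cells in the levels below was not tested. The summed level of the 10 genes was 690.4, 601.2 and 470 CPM in P1 replicates 3, 4 and 5, a span of 1.47-fold after TMM scaling. Before scaling it was 8029, 2598 and 4052 counts, in libraries of 10363396, 7510327 and 7969649 counts. Relative to these totals replicate 4 was lowest and the span was wider. Across the same libraries the TMM-scaled marker sums spanned 29.3-fold for red cell, 7.32-fold for neutrophil and 2.87-fold for macrophage genes. They spanned 2.81-fold for pan-B cell and 2.09-fold for T cell genes. Within the red cell sum the globin gene Hbb-bs alone had 14854, 117250 and 2778 CPM. All these spans depend on the TMM factor of replicate 4, and what they mean for the source of the 10 transcripts was not tested.

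The Aurora A module rose. Aurka (ENSMUSG00000027496, GRCm39 chromosome 2, 172198110 to 172212455, minus strand) had 5.94, 7.51 and 5.82 CPM in the WT libraries A, B and C, against 49.8, 34.5 and 38.7 CPM in P1 replicates 3, 4 and 5. The lowest P1 library was 4.59 times the highest WT library. This came to a log2 fold change of 2.67 with a standard error of 0.29, the error given after ± for every fold change here (edgeR adjusted p = 0.000758, n = 3 per group). Tpx2 (chromosome 2, 152689884 to 152737241, plus strand), its activator, had 8.06, 10.8 and 7.71 CPM in WT and 112, 119 and 99.1 CPM in P1. In TMM-scaled CPM it had the most even P1 libraries of the 10 genes, spanning 1.20-fold, from 1306, 514 and 854 counts before scaling. The log2 fold change of Tpx2 was 3.63 ± 0.27 (edgeR adjusted p = 0.000359). Within a library, the log2 ratio of Aurka to Tpx2 was -0.43, -0.51 and -0.40 in WT and -1.17, -1.78 and -1.35 in P1. The ratio was lower in all 3 P1 libraries than in any WT library, and the group means differed by -0.99, though the exact permutation test cannot go below p = 0.1 with 3 libraries against 3 (p = 0.1, two-sided, 0.133 adjusted over 4 ratios).

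Aurkb, the Aurora kinase of the chromosomal passenger complex, is the other Aurora kinase of mitosis. It had 11.5, 12.9 and 13.0 CPM in WT and 95.9, 162 and 137 CPM in P1, and rose by 3.40 ± 0.29 (edgeR adjusted p = 0.000414). The log2 ratio of Aurka to Aurkb averaged -0.94 in WT and -1.66 in P1, a difference of -0.72 whose libraries overlapped between the groups (exact permutation p = 0.2, adjusted p = 0.2). The ratio was -0.94 in P1 replicate 3, within the WT range, and -2.22 and -1.82 in replicates 4 and 5. Aurkc, the germ cell Aurora kinase, had 1 count in each WT library and 0 in each P1 library and was not tested.

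Plk1 (chromosome 7, 121758662 to 121769096, plus strand), the polo-like kinase of mitosis, had 5.94, 8.80 and 6.05 CPM in WT and 63.5, 41.2 and 51.7 CPM in P1. All P1 libraries lay at least 4.68 times above the highest WT library. It rose by 2.91 ± 0.31 (edgeR adjusted p = 0.000729). Bora (chromosome 14, 99283658 to 99311976, plus strand), the cofactor through which Aurora A reaches PLK1, had 9.09, 5.39 and 8.01 CPM in WT and 21.1, 18.7 and 16.7 CPM in P1. Its groups did not overlap, with the lowest P1 library at 1.84 times the highest WT library. The rise of Bora was 1.33 ± 0.32 (edgeR adjusted p = 0.0160). It no longer passed when WT A, B or C was left out (edgeR adjusted p = 0.0527, 0.0934 and 0.0730 in turn) or with scaling to library totals (adjusted p = 0.169). The log2 ratio of Plk1 to Bora was -0.60, 0.69 and -0.40 in WT and 1.58, 1.13 and 1.62 in P1, a difference of 1.55 (exact permutation p = 0.1, adjusted p = 0.133).

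Plk4 (chromosome 3, 40754454 to 40771318, plus strand), the kinase of centriole duplication, had 11.9, 12.1 and 10.7 CPM in WT. In P1 it had 42.9, 24.1 and 20.9 CPM, with replicate 3 at 2.06 times the lowest recipient. The log2 fold change was 1.34 ± 0.34 (edgeR adjusted p = 0.0191). As for Bora, leaving out WT A, B or C ended the call (edgeR adjusted p = 0.0833, 0.0836 and 0.0916), as did scaling to library totals (adjusted p = 0.142). The log2 ratio of Plk1 to Plk4 went from -0.98, -0.45 and -0.81 in WT to 0.56, 0.77 and 1.30 in P1, with all P1 values above all WT values (difference 1.63, exact permutation p = 0.1, adjusted p = 0.133).

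The remaining polo-like kinases did not pass the test. Plk2, a kinase induced by stress and growth signals, had 41.1, 83.0 and 54.7 CPM in WT and 3.96, 13.0 and 48.4 CPM in P1. Its log2 fold change was -1.45 ± 0.75 (edgeR adjusted p = 0.189), with P1 replicate 5 inside the WT range and the other recipients below it. Without that library it was -2.91 and called lower (adjusted p = 0.0102). Plk3 had 25.5, 19.6 and 26.6 CPM in WT and 21.3, 19.2 and 34.6 CPM in P1, with a log2 fold change of 0.07 ± 0.31 (edgeR adjusted p = 0.892). Plk5 had no counts in any library. Of the 3 Aurora and polo-like kinases tested outside the members, 1 was called higher, Aurkb, and 0 lower (by edgeR, at an unadjusted p under 0.05 and by DESeq2). Among all genes tested edgeR called 16.9% higher and 11% lower.

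**Figure D2:**
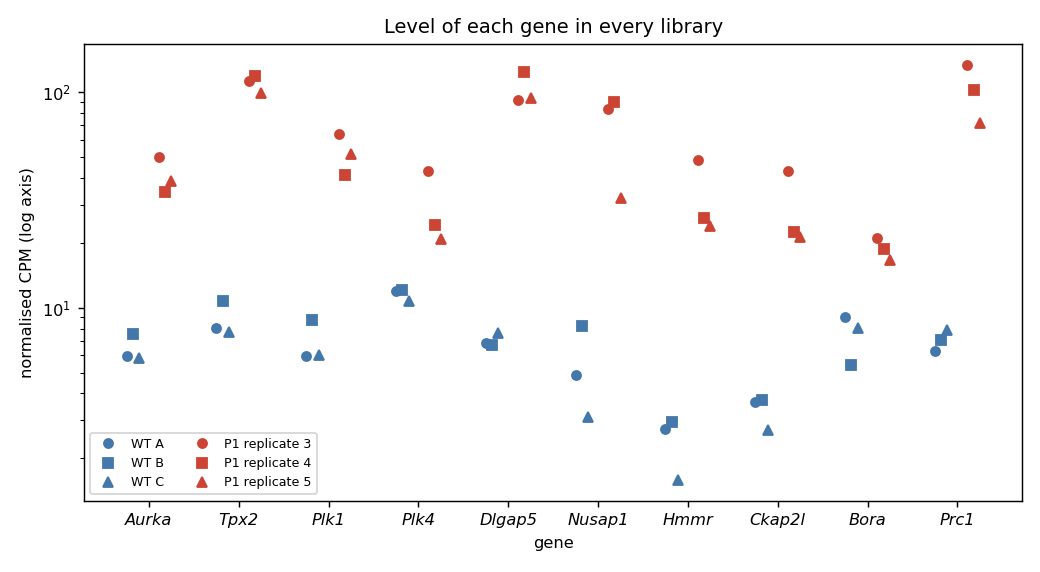
Normalised CPM (log axis) of the 10 genes in each of the 3 WT B cell libraries (blue) and 3 P1 spleen libraries (red), with 1 point per library. The red points lie above the blue points for every gene, and come closest for Plk4 and Bora.

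The 5 microtubule-binding genes of spindle fibres and poles rose by 3.10 to 3.87 on the log2 scale. Dlgap5 (chromosome 14, 47625236 to 47655864, minus strand), which stabilises the microtubules that reach kinetochores, had 6.85, 6.74 and 7.63 CPM in WT and 92.1, 124 and 94.1 CPM in P1. The gap between the groups was the widest of the 10 genes, with the lowest P1 library 12.06 times the highest WT library. It rose by 3.87 ± 0.26 (edgeR adjusted p = 0.000337). Prc1 (chromosome 7, 79944198 to 79966007, plus strand), which crosslinks antiparallel microtubules of the central spindle for cytokinesis, had 6.30, 7.06 and 7.86 CPM in WT and 134, 102 and 71.5 CPM in P1. Its rise was 3.85 ± 0.32 (edgeR adjusted p = 0.000405). Hmmr (chromosome 11, 40592222 to 40624249, minus strand), the hyaluronan-mediated motility receptor that acts inside the cell at spindle poles, had 2.73, 2.95 and 1.59 CPM in WT. It reached 48.2, 25.9 and 23.9 CPM in P1, with replicate 3 the highest, and rose by 3.75 ± 0.43 (edgeR adjusted p = 0.00086).

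Nusap1 (chromosome 2, 119448779 to 119481725, plus strand) is a nucleolar protein that bundles spindle microtubules around chromosomes. In TMM-scaled CPM it varied most of the 10 genes between libraries of both groups. It had 4.85, 8.22 and 3.10 CPM in WT and 83.8, 89.6 and 32.2 CPM in P1, with replicate 5 well under the other recipients (2.78-fold between highest and lowest). The log2 fold change was 3.66 ± 0.52 (edgeR adjusted p = 0.00178), with the largest standard error of the 10. Ckap2l (chromosome 2, 129110130 to 129139132, minus strand), a spindle pole and midzone protein of neural progenitors and other dividing cells, had 3.64, 3.72 and 2.72 CPM in WT. In P1 it had 43.2, 22.4 and 21.2 CPM, again with replicate 3 above the other recipients, and it rose by 3.10 ± 0.39 (edgeR adjusted p = 0.00113).

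In TMM-scaled CPM, P1 replicate 3 was the highest recipient for 7 of the 10 genes. Replicate 4 was highest for the other 3, which are Tpx2, Dlgap5 and Nusap1. Replicate 5 was the lowest for 7 genes, replicate 4 for Aurka and Plk1, and replicate 3 for Dlgap5. In the same scaling, Tpx2 and Nusap1 followed the order of the red cell marker sum (replicate 4, then 3, then 5). Aurka and Plk1 followed that of the neutrophil marker sum (3, 5, 4). Plk4, Hmmr, Ckap2l, Bora and Prc1 followed that of the T cell and macrophage marker sums (3, 4, 5). None of the 10 genes followed that of the pan-B cell sum (5, 3, 4). Dlgap5 followed none of these orders, and with 3 libraries they are a description. They depend on the TMM factor of 0.578 of replicate 4. Relative to library totals, the summed counts of the 10 genes were lowest in replicate 4. The mean of the 10 genes above their WT means was 3.30, 2.92 and 2.65 on the TMM-scaled log2 scale in replicates 3, 4 and 5. The recipients therefore differed less among themselves than from the WT libraries, which lay between -0.16 and 0.16.

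**Figure D3:**
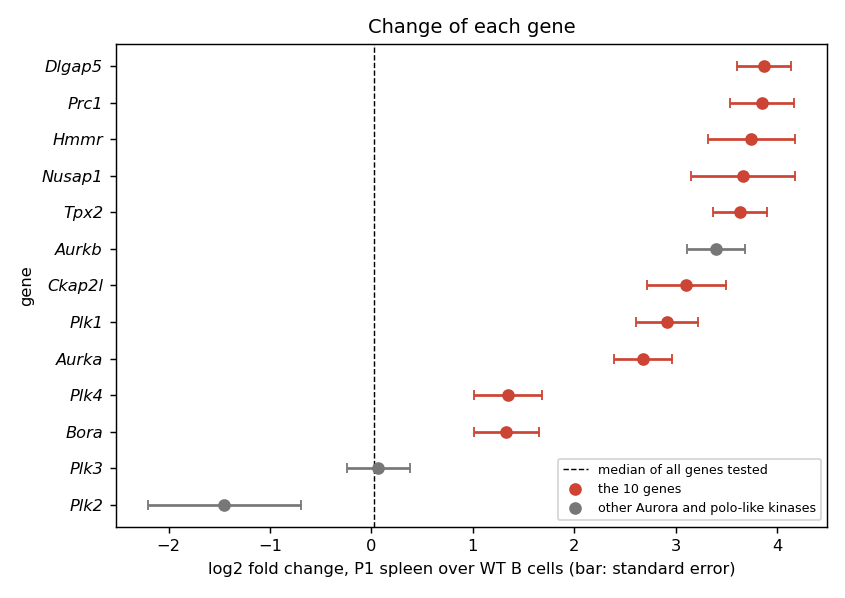
Log2 fold change of P1 spleen over WT B cells (points) with its standard error (bars) for the 10 genes (red) and for the other Aurora and polo-like kinases tested (grey). The dashed line is the median of all genes tested, 0.02. Plk4 and Bora lie at 1.34 and 1.33, the other 8 genes between 2.67 and 3.87, Plk3 at 0.07 and Plk2 at -1.45.

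Levels were compared between genes per kilobase of gene model. In WT, Plk1 was highest at 3.15 ± 0.736 CPM per kilobase (mean ± SD, n = 3), followed by Aurka at 2.54 ± 0.373, Tpx2 at 1.89 ± 0.36, Plk4 at 1.69 ± 0.105 and Bora at 1.46 ± 0.369. Nusap1, Ckap2l, Dlgap5 and Prc1 came next, from 1.33 to 0.86, and Hmmr was lowest at 0.446 ± 0.135. The ranges of neighbours in this order overlapped, except for Dlgap5 above Prc1 and Prc1 above Hmmr. Within each of the 3 WT libraries Plk1 also lay above Aurka and Aurka above Tpx2. In P1, Plk1 and Tpx2 led at 23.7 ± 5.09 and 23.5 ± 2.16 CPM per kilobase. Nusap1 followed at 16.9 ± 7.77, Aurka at 16.2 ± 3.12, Dlgap5 at 15.2 ± 2.65, Prc1 at 12.4 ± 3.78, Ckap2l at 9.23 ± 3.93 and Hmmr at 6.01 ± 2.48. Plk4 and Bora, in the middle of the WT order, were the 2 lowest at 4.27 ± 1.74 and 3.66 ± 0.423. The ranges of every pair of neighbours in the P1 order overlapped. Within each of the 3 P1 libraries, however, Tpx2 lay above Nusap1, Prc1 above Ckap2l, Ckap2l above Hmmr and Hmmr above Plk4. The gene models are of unequal length, from 2199 bases for Plk1 to 8225 for Prc1, and count all annotated exons, so these levels depend on which isoforms were in use.

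**Figure D4:**
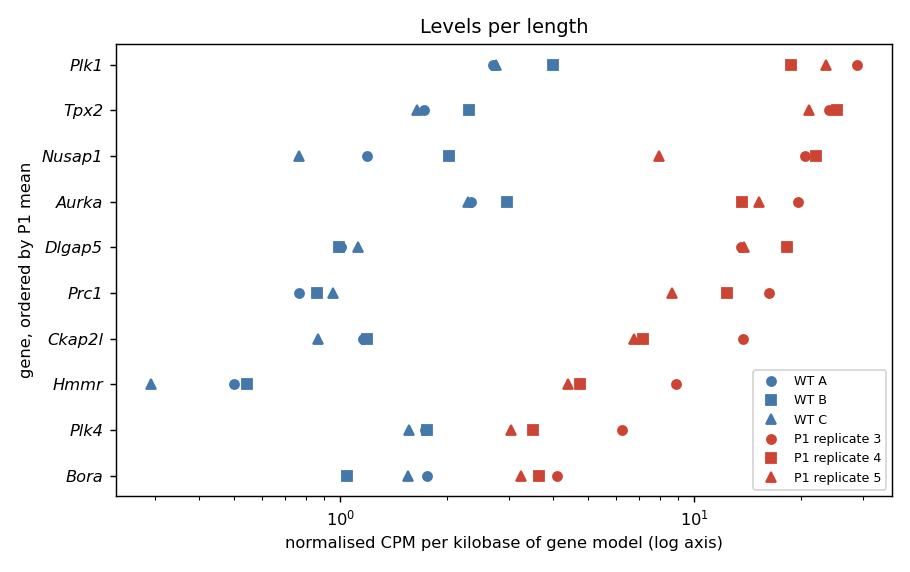
Normalised CPM per kilobase of gene model (log axis) of the 10 genes, ordered by their P1 mean, in WT B cell (blue) and P1 spleen (red) libraries, with 1 point per library. Plk1 and Tpx2 lead in P1 at 23.7 and 23.5, and Plk4 and Bora, at 1.69 and 1.46 in WT, end the P1 order at 4.27 and 3.66.

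Partners on the spindle moved with the members. Of 20 spindle and midzone partners, 16 were called higher and 0 lower by edgeR, also at an unadjusted p under 0.05 and by DESeq2. Their median log2 fold change was 3.26. Among all genes tested edgeR called 16.9% higher and 11% lower. Kifc1, a minus-end-directed kinesin that focuses poles, rose by 5.08 ± 0.50 (edgeR adjusted p = 0.000622), Anln, the cytokinesis scaffold anillin, by 4.99 ± 0.39 (adjusted p = 0.000402) and Spag5, the spindle protein astrin, by 4.45 ± 0.36 (adjusted p = 0.000405). Tacc3, an Aurora A substrate that sits on kinetochore fibres, rose by 2.92 ± 0.26 (edgeR adjusted p = 0.000515). Its partner Ckap5 rose by 0.97 ± 0.24 (adjusted p = 0.0191), which did not hold with WT A, B or C left out (edgeR adjusted p = 0.103, 0.079 and 0.126). The 4 that did not pass were Numa1, Clasp1, Clasp2 and Mapre1, at 0.13, -0.26, 0.19 and -0.32.

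Of 19 genes that switch Aurora A and PLK1 on or remove them, 14 were called higher and 1 lower, with a median of 1.90. Among all genes tested 16.9% were called higher and 11% lower. Cdk1 and its partner Ccnb1 (cyclin B1) rose by 3.88 ± 0.32 and 3.78 ± 0.31 (edgeR adjusted p = 0.000405 for both), and the phosphatase Cdc25c by 4.68 ± 0.36 (adjusted p = 0.000376). Both activators of the anaphase-promoting complex, which marks the kinases for destruction, rose: Cdc20 by 3.00 ± 0.28 and Fzr1 by 2.99 ± 0.46 (edgeR adjusted p = 0.000565 and 0.00241). Fzr1 had 358, 729 and 217 CPM in P1 replicates 3, 4 and 5. Ube2c, the ubiquitin-conjugating enzyme of that complex, rose by 4.53 ± 0.43 (edgeR adjusted p = 0.000579), with 88.5, 139 and 48.6 CPM in the same libraries. In TMM-scaled CPM both followed the order of the red cell marker sum across the recipients, and the part of those cells was not tested. Before scaling Ube2c had 1029, 600 and 419 counts, and relative to library totals it was highest in replicate 3. The scaffold proteins known to activate Aurora A went apart. Ajuba rose by 6.60 ± 1.06 (edgeR adjusted p = 0.00293), from 1, 8 and 3 counts in WT to 57, 86 and 480 in P1. Nedd9, an adhesion scaffold abundant in lymphocytes, fell by 2.07 ± 0.32 (edgeR adjusted p = 0.00253), from 375 ± 37.9 to 89.3 ± 29.7 CPM. With libraries scaled to equal B cell genes it stood at 0.39 (edgeR adjusted p = 0.458), where the median of all genes was 2.48.

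Centriole genes did not move as a group. Of 16 centriole duplication genes 4 were called higher and 2 lower, with a median of 0.23. Of all genes tested, 16.9% were called higher and 11% lower, so these counts alone do not set the list apart. Stil, which PLK4 phosphorylates at the site of a new centriole, had 2.37 ± 1.09 CPM (mean ± SD, n = 3) in WT and 46.7, 24.1 and 34.2 CPM in P1. Its log2 fold change was 3.88 ± 0.45 (edgeR adjusted p = 0.000913). Its partner Sass6, the cartwheel protein, rose by 1.01 ± 0.32 (adjusted p = 0.0472), and did not pass with WT A, B or C left out (edgeR adjusted p = 0.109, 0.164 and 0.207) or with P1 replicate 3 or 4 left out (0.0791 and 0.0784). The PLK4 scaffold Cep152 had 53.0, 290.2 and 64.8 CPM in P1 and 29.0 ± 1.15 CPM in WT, a log2 fold change of 2.22 ± 0.62 (edgeR adjusted p = 0.0293). With P1 replicate 4, its highest library, left out it was 1.04 (adjusted p = 0.0110), and with WT A, B or C left out it did not pass (0.0957, 0.108 and 0.0875). The other scaffold, Cep192, was at 0.64 (edgeR adjusted p = 0.278). With P1 replicate 4 left out it was called higher, at 1.00 (adjusted p = 0.0244). The 2 called lower were Cep120 and Spice1, at -0.78 ± 0.23 and -1.13 ± 0.30 (adjusted p = 0.036 and 0.0234), and neither passed with WT A, B or C left out or with library totals. Scaled to equal B cell genes, which moved the median of all genes from 0.02 to 2.48 and called 83.7% of genes higher, they stood at 1.77 and 1.36 (edgeR adjusted p = 0.0100 and 0.0370), below that median. Of the 4 called higher, Stil was the 1 that stayed called without WT A, without WT B and without WT C.

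The nuclear import cycle that frees TPX2 and NUSAP1 near chromosomes changed in part. Of 9 Ran and importin genes, beside 16.9% called higher of all genes, 4 were called higher and 0 lower by edgeR, and 5 and 0 by DESeq2 and at an unadjusted p under 0.05, with a median of 0.75. The 4 became 2 with WT A, B or C left out or with library totals, and 0 with S phase scaling. Rcc1, the exchange factor that makes RanGTP on chromatin, and Kpna2, an importin alpha that holds TPX2, rose by 1.90 ± 0.35 and 1.88 ± 0.30 (edgeR adjusted p = 0.00512 and 0.00288). Ran itself was at 1.01 (adjusted p = 0.0514) and Kpnb1 at 0.13 (adjusted p = 0.769). Gamma-tubulin ring and augmin genes, which seed spindle microtubules, were 2 higher and 0 lower of 17 by edgeR, with a median of 0.05. At an unadjusted p under 0.05 they were 3 and 1, and by DESeq2 3 and 0. The 2 were Haus4 at 2.33 ± 0.40 and Haus1 at 1.36 ± 0.39 (adjusted p = 0.00376 and 0.0319). Haus1 did not pass with WT A, B or C left out (edgeR adjusted p = 0.118, 0.105 and 0.130) or with P1 replicate 5 left out (0.0628).

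S phase genes, which act in DNA replication, were compared as a further list of the cell cycle. Of 24, 19 were called higher and 0 lower by edgeR (21 and 0 at an unadjusted p under 0.05, 20 and 0 by DESeq2). Their median was 1.70, below the 3.37 of the 10 genes. Among all genes tested edgeR called 16.9% higher and 11% lower. When libraries were scaled to equal sums of these S phase genes, an alternative chosen after the data were seen, 8 of the 10 genes were still called higher, where 7.39% of all genes were called higher and 65.7% lower. In that scaling the median of all genes was -1.61 and the 8 genes lay between 1.07 and 2.28, while Plk4 and Bora were at -0.24 and -0.29 (edgeR adjusted p = 0.59 and 0.512). DESeq2 called all 10 higher, and 20.1% of genes tested. Scaled to equal sums of B cell genes, all 10 were called higher with a median of 5.91, but so were 83.7% of genes tested, whose median moved to 2.48. Such a change of scaling moves every gene by about the same amount.

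**Figure D5:**
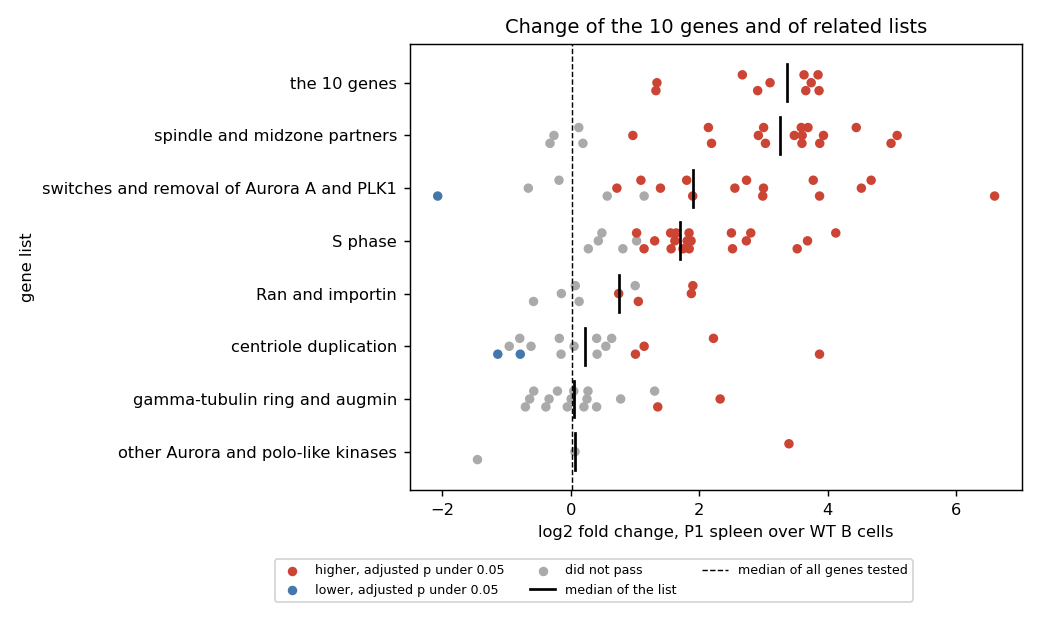
Log2 fold change of P1 spleen over WT B cells for each gene tested of the 10 genes and 7 related lists (red, called higher; blue, called lower; grey, did not pass), with the list median as a black bar and the median of all genes tested as a dashed line. The 10 genes and the spindle and midzone partners have medians of 3.37 and 3.26, the S phase genes 1.70 and the gamma-tubulin and augmin genes 0.05.

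The genes whose profile over the 6 libraries lay closest to the mean of the 10 included 3 known from mitosis. Likeness was the root mean square difference in log2 CPM above the WT mean. Ect2, the exchange factor for RhoA that PLK1 brings to the central spindle, was closest at 0.073, followed by Sgo1, the guardian of centromere cohesion, at 0.129 and the condensin subunit Ncaph at 0.202. Gbp2b, an interferon-induced GTPase, and Faxc came next at 0.202 and 0.209, on 1 to 5 counts per WT library. Among the 10 genes themselves the distance from their mean was smallest for Ckap2l (0.179), Plk1 (0.214) and Aurka (0.265) and largest for Plk4 (1.209) and Bora (1.186).

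Exons of 4 members overlap another gene model on the opposite strand, and the strand setting of the counting is not stated, so reads there may be shared or lost. Prc1 overlaps Rccd1 by 911 of its 8225 bases, and Rccd1 had 379, 254 and 286 counts in WT and 122, 47 and 249 in P1. Nusap1 overlaps Oip5 by 172 bases, Ckap2l overlaps Gm14024 by 181 and Plk1 overlaps Gm44985 by 156. Oip5, itself a centromere gene, had 11 to 14 counts in WT and 32 to 132 in P1. Gm14024 had 0 counts in every library and Gm44985 at most 23, against 178 to 739 counts of Plk1 in P1.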

How the data were processed

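RNA of 3 WT B cell and 3 P1 spleen samples was sequenced. The authors deposited 1 table of raw counts per gene. Trim Galore, HISAT2, featureCounts and GRCm39 are named, per the submitters' processing notes, while versions and options are not given in the sources used here. The deposited table also gives gene model lengths in bases. The labels do not show which mouse a WT column belongs to, so the letters A to C follow the columns, and P1 replicates keep their labelled numbers 3, 4 and 5.

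Symbols were attached by Ensembl ID (51948 of 56884 genes). Genes were filtered with filterByExpr, scaled with TMM and tested with edgeR 4.0.16 (R 4.3.3) by the quasi-likelihood F-test with robust dispersion, adjusted by Benjamini-Hochberg at 0.05. DESeq2 1.42.0 was an alternative. Log2 ratios used a prior count of 2 and two-sided exact permutation tests. The scripts were tested on simulated data.

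The 10 genes and the lists were chosen with earlier results of these data known. Genes that could be named were the 10, any gene of a list of 26 or fewer, and the 5 nearest profiles. Of 200 list entries, 199 matched a gene. Count differences between libraries of a group exceeded sampling noise (chi-square over its degrees of freedom from 22.1 to 325.7), so none was the same library deposited again. This does not show that they came from separate mice.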

Additional observations from a re-analysis of the deposited data

How the results depend on the processing

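The 10 genes called higher stayed at 10 with DESeq2 size factors, the DESeq2 test, no filter, a stricter filter, B cell scaling and without P1 replicate 3, 4 or 5. With library totals, without WT A, B or C and with S phase scaling 8 were called, the exceptions being Plk4 and Bora. Under S phase scaling Plk4 and Bora turned to -0.24 and -0.29. Their median log2 fold change ran from 3.04 (without P1 replicate 3) to 3.48 when 1 library was left out. Over all genes 4320 were called, against 13081 with B cell scaling (99% of calls higher against 60.6%) and 11296 with S phase scaling (10.1% higher), and 2459 (without WT B) to 5221 (without P1 replicate 3) when leaving out 1 library. The related lists held 60 genes called higher of 108, against 106 with B cell scaling and 30 with S phase scaling, and 45 to 62 when leaving out 1 library. The 4 log2 ratios kept their sign with a prior count of 0.5 and without each library: from -1.12 to -0.81 for Aurka to Tpx2, 1.30 to 1.94 for Plk1 to Bora, 1.41 to 1.78 for Plk1 to Plk4 and -1.08 to -0.44 for Aurka to Aurkb. Leaving out a WT library lowered the count over all genes (2542, 2459 and 2970) and leaving out a P1 library raised it (5221, 4456 and 5185). The cause of these changes was not tested. No paired analysis was made, because the labels give no pairing between WT and P1 mice.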
